A study of Mus musculus with 10 samples.

Results

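The 7 genes examined were the CXC chemokine ligands Cxcl1, Cxcl2, Cxcl9, Cxcl10, Cxcl13, Cxcl14 and Cxcl16, chosen by name from the 53715 genes counted in each library. A fixed list of all 15 mouse CXC ligands of these files gave their relatives. Cxcl1 and Cxcl2 form the neutrophil-attracting class, Cxcl9 and Cxcl10 the interferon-induced class, and Cxcl13, Cxcl14 and Cxcl16 belong to neither. The RNA came from microglia of untreated male C57BL/6 mice (C57BL/6J in the study's methods) aged 3 months, isolated with magnetic CD11b beads from midbrain or striatum. The brains were perfused with cold saline and digested with papain before the beads were applied. No group carried a transgene or received an agent, so region and cohort are the only contrasts. A pilot cohort and a second cohort each gave 2 libraries per region, the second cohort as replicates 1 and 3. By the study's text the replicates of a cohort are mice from which both regions were taken, but the labels do not say which libraries share a mouse. A further 2 libraries of the second cohort, with the region of their title at odds with that of their file, entered no comparison.

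CXC chemokines are small secreted proteins that steer leukocytes through G protein-coupled receptors. Cxcl1, Cxcl2 and their neighbours signal through Cxcr2 and draw neutrophils, and their genes respond quickly to NF-kB, the factor downstream of interleukin-1 and Toll-like receptors. Cxcl9, Cxcl10 and Cxcl11 signal through Cxcr3 on activated T cells and NK cells and are induced by interferons. Cxcl13 guides B cells through Cxcr5, and Cxcl16 is a membrane-bound ligand of Cxcr6. In brain, microglia and border macrophages are known sources of Cxcl2, Cxcl10 and Cxcl16 when they are activated. CD11b is also present on neutrophils, monocytes and border macrophages, so the beads can carry these cells along. By the study's flow cytometry nearly all cells after bead separation were microglia, with a few percent of infiltrated myeloid cells.

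Both classes are gene clusters on chromosome 5 (GRCm38, Gencode M17). Cxcl1 lies at chr5:90891241-90893115 and Cxcl2 at chr5:90903871-90905938, both on the plus strand and 12.6 kb apart from start to start. Cxcl9 at chr5:92321347-92328079 and Cxcl10 at chr5:92346638-92348889 are on the minus strand. They are 25.3 kb apart between their lowest coordinates, which on this strand are not the transcription starts. Cxcl13 lies farther along the same chromosome at chr5:95956951-95961068, while Cxcl14 is at chr13:56288643-56296551 and Cxcl16 at chr11:70453983-70459984. Exons of Cxcl10 share 133 bases, 5.9% of its exon length, with Art3 on the other strand, and those of Cxcl16 share 552 bases (18.3%) with Zmynd15. Counting ignored strand and dropped reads that fell on both genes, so the values of these genes may miss such reads. The other 5 members share no exon base with another gene.

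The promoters are shown because the classes are known for their induction by NF-kB and by interferons. RefSeq windows (GRCm38.p6, 250 bases before to 50 after a transcription start) were at hand for 6 of the 7 members, all but Cxcl16. Capitals mark each match, on either strand, to a kappaB motif (GGG and TTCC with 3 free bases between) or an interferon-stimulated response element (ISRE; GAAA and GAAA with 2 free bases between). Overlapping matches on opposite strands were merged. The stretches run 5′ to 3′ along the gene, from -120 to -31 for Cxcl1 (chr5:90891125-90891214), Cxcl2 (chr5:90903779-90903868) and their neighbour Cxcl3 (chr5:90785981-90786070), and from -250 to -1 for Cxcl10 (chr5:92348890-92349139, minus strand).
Cxcl1: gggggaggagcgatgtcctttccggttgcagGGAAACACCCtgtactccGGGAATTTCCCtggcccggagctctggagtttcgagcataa
Cxcl2: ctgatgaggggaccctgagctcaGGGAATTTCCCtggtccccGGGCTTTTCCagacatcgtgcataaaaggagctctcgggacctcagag
Cxcl3: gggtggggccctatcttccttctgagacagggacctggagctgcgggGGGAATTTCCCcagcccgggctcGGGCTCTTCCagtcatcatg
Cxcl10: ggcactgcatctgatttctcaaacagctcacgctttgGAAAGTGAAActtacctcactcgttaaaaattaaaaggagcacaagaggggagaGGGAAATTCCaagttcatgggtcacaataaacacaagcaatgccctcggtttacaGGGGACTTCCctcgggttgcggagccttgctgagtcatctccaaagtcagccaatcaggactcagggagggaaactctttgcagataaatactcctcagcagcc

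The kappaB letters occurred in 5.56% of all 32851 windows, and in 3 of the 6 members with a window: Cxcl1, Cxcl2 and Cxcl10. The stretch GGGAATTTCCC, which holds overlapping matches on opposite strands, was in Cxcl1, Cxcl2 and Cxcl3. The ISRE letters occurred in 3.44% of all windows, and among the members in Cxcl10 at -213 and Cxcl14 at -172. The gamma-activated sequence (GAS; TTC and GAA with 3 free bases between) occurred in 8.3% of windows and among the members only in Cxcl14. No match to these letters was in the windows of Cxcl9 and Cxcl13, nor in those of the relatives Cxcl12, Cxcl15, Pf4 and Ppbp. Of these relatives, Cxcl15 and Ppbp belong to the neutrophil-attracting class. The motifs were picked after the sequences had been seen, and a match of letters is not evidence that a factor binds there.

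**Figure D1:**
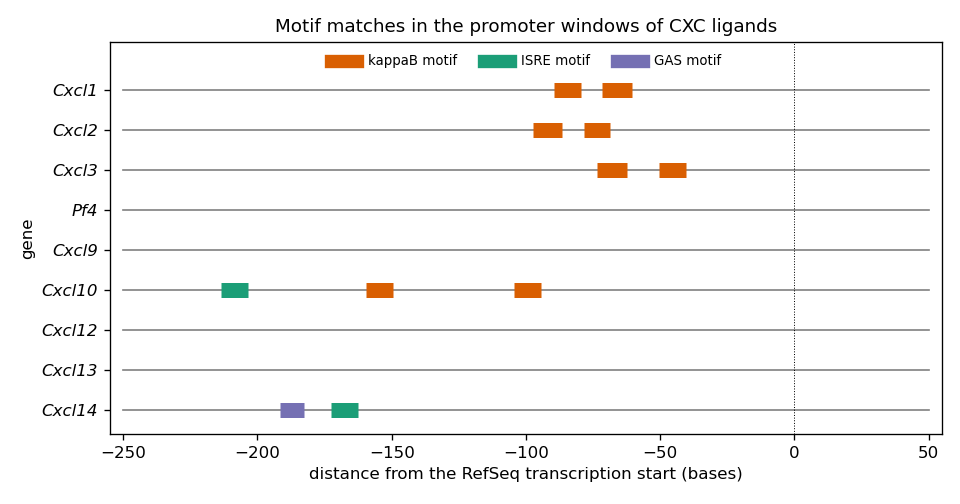
Motif matches on either strand (coloured blocks) in the promoter windows of 9 CXC ligands, by distance in bases from the RefSeq transcription start (dotted line). Cxcl1, Cxcl2 and Cxcl3 each hold kappaB matches close to the start. Cxcl10 holds 2 kappaB matches and an ISRE, and Pf4, Cxcl9, Cxcl12 and Cxcl13 hold none. The windows of Cxcl15 and Ppbp, not drawn, hold none either.

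Levels are given as CPM, the customary measure of a gene's reads relative to the total of its library, corrected with the TMM factors of edgeR. Library totals of the 8 assigned libraries ranged from 575709 counts in striatum replicate 3 of the second cohort to 8463782 in striatum replicate 2 of the pilot. In the shallow library 3 counts, the floor used here, came to 5.26 CPM, so Cxcl9 and Cxcl13 could not be measured in it. Its Cxcl1 value rests on 8 counts and its Cxcl2 value on 42. All 8 libraries carried the microglial genes, whose summed level over 9 markers ranged from 11639 to 21071 CPM. In the joint fit 9 of 9 of these markers had a lower value in the midbrain (median log2 fold change -0.43, against 0.04 over all genes), and 0 were called by limma. Per kb of exon, Cxcl2 was the highest member in all 4 groups. It ranged from 44.9 CPM per kb in the striatum of the second cohort to 959.2 in its midbrain. Cxcl9 and Cxcl13 were the lowest in every group, at most 3.14 CPM per kb. Reads of this protocol come from transcript ends and need not grow with exon length, so comparisons between genes are approximate on either scale. By mean CPM without the division by length, Cxcl2 was also the highest member in all 4 groups.

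Cxcl1 and Cxcl2, the neutrophil attractants, were higher in every midbrain library than in every striatum library of the same cohort. Cxcl2, the ligand also known as MIP-2, was at 485 and 664 CPM in the pilot midbrain against 95.2 and 399 in the pilot striatum. In the second cohort it was at 2792 and 1176 CPM in the midbrain against 112 and 73.6 in the striatum. Both midbrain libraries of the second cohort stood above all others, and striatum replicate 2 of the pilot stood near the pilot midbrain. The log2 fold change of Cxcl2 was 1.55 (SE 0.54) in the pilot, 4.19 (SE 0.43) in the second cohort and 2.70 (SE 0.55) over both, an 18.3-fold difference in the second cohort. It passed the threshold within the second cohort (limma, unadjusted p = 8.98e-07) and in the joint fit (limma, adjusted p = 0.042), but not in the pilot (limma, unadjusted p = 0.0182). The pilot value was 0.50 without striatum replicate 1 and 2.60 without striatum replicate 2. In both fits a lone striatum library is assumed to vary like the midbrain. With same-numbered libraries as a replicate block the pilot value was 1.54 and was called (limma, unadjusted p = 0.000718). The joint call was lost when any single library other than striatum replicate 2 of the pilot was left out (limma, adjusted p from 0.0506 to 0.203), with a log2 fold change of at least 2.22 throughout. Adding the 2 unassigned libraries by title ended the calls of Cxcl2 (1.85 in the second cohort, 1.70 over both) and of Cxcl1 in the second cohort (1.11), while adding them by file name gave 3.67, 2.68 and 3.32.

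Cxcl1, the mouse counterpart of human GRO-alpha, followed the same order at lower levels. It was at 42.9 and 49.9 CPM in the pilot midbrain against 9.48 and 38.1 in the pilot striatum. The second cohort had 105.9 and 110.0 CPM in the midbrain against 7.99 and 14.02 in the striatum. The groups of the second cohort were far apart, while a single striatum library carried the pilot difference: without striatum replicate 1 the pilot log2 fold change was 0.27, and without replicate 2 it was 2.30. Its log2 fold change was 1.14 (SE 0.49) in the pilot, 3.48 (SE 0.44; limma, adjusted p = 0.00728) in the second cohort and 1.92 (SE 0.47; limma, adjusted p = 0.0793) over both. By the main limma fits Cxcl1 was called in the second cohort only. Over both cohorts 6 of 10 alternative fits with no single library left out called it. DESeq2 was among them (adjusted p = 0.0412), while the quasi-likelihood test of edgeR was not (adjusted p = 0.0734). The ratio of Cxcl1 to Cxcl2 reads ranged from 0.0379 to 0.19, and its regions overlapped (exact permutation test within cohorts, two-sided, p = 0.278).

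**Figure D2:**
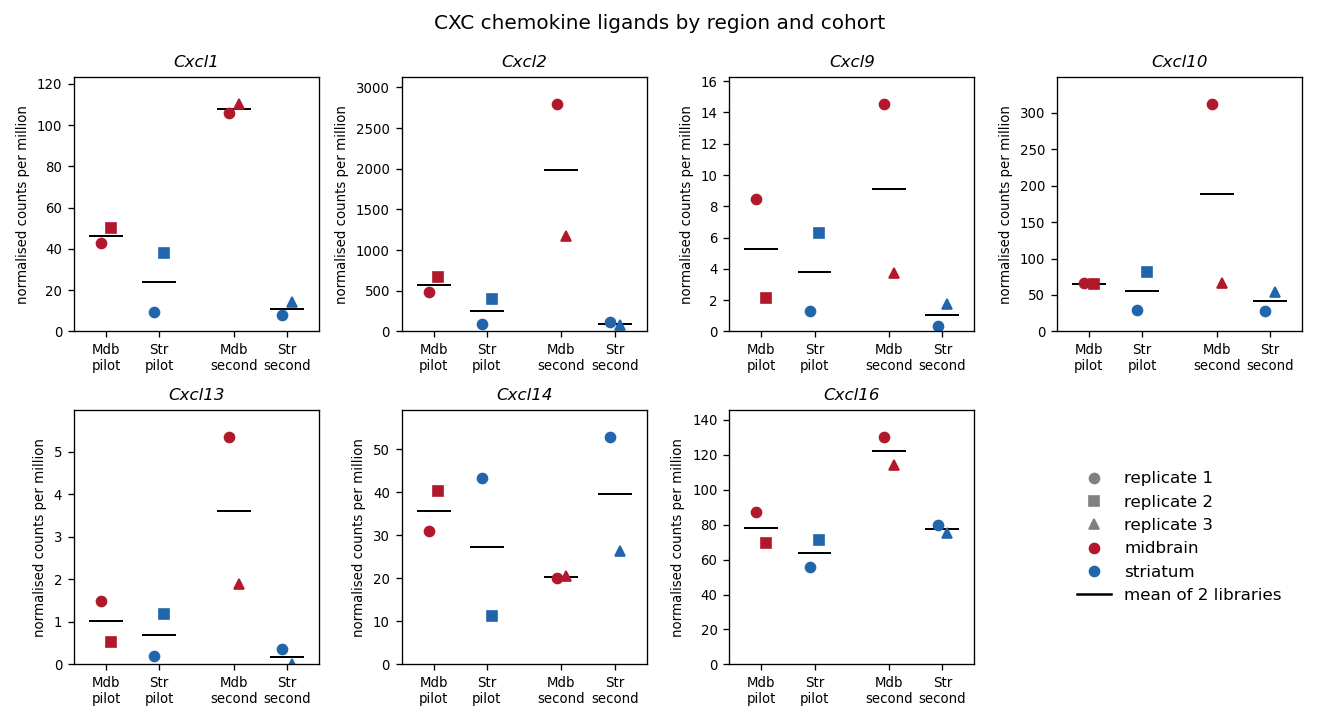
TMM-scaled CPM (linear axes from 0) of the 7 ligands in the 8 assigned libraries, by region (Mdb, midbrain; Str, striatum) and cohort; a line marks the mean of 2 libraries. Cxcl1 and Cxcl2 are the members whose regions do not overlap in either cohort.

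The interferon-induced ligands overlapped between regions in the pilot, and their higher values in the midbrain of the second cohort were not called by the main limma fit. Cxcl10 was at 65.8 and 65.3 CPM in the pilot midbrain, between the 29.2 and 81.9 CPM of the striatum. The second cohort had 311 and 66.0 CPM in the midbrain against 28.0 and 54.3 in the striatum. The high value was that of midbrain replicate 1, and the other midbrain library lay close to the upper striatum library. Cxcl10 had a log2 fold change of 0.36 (SE 0.40) in the pilot, 2.08 (SE 0.70; limma, adjusted p = 0.313) in the second cohort and 1.06 (SE 0.53; limma, adjusted p = 0.386) over both. None of these passed its threshold. The value of the second cohort was 0.98 without midbrain replicate 1 and 3.25 without midbrain replicate 3. The pilot value turned to -0.32 without striatum replicate 1 and was 1.19 without striatum replicate 2. In the second cohort Cxcl10 was called by the quasi-likelihood test of edgeR (unadjusted p = 0.00217) and by limma with the replicate block. DESeq2 did not call it (unadjusted p = 0.0443).

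Cxcl9 was a low gene throughout. Its counts were 51 and 12 in the pilot midbrain, 7 and 53 in the pilot striatum, 68 and 16 in the midbrain of the second cohort, and 1 in each striatum library there. The regions overlapped in the pilot. The striatum of the second cohort stood below the floor of 3 counts, so the fitted fold change is no measured bound there, and the 3.76 CPM of midbrain replicate 3 lay under the 5.26 CPM that 3 counts make in the shallow striatum library. Its log2 fold change was 0.36 (SE 0.82) in the pilot, 2.82 (SE 1.07; limma, adjusted p = 0.375) in the second cohort and 1.26 (SE 0.80; limma, adjusted p = 0.504) over both. The main limma fits did not call it. In the second cohort the quasi-likelihood test (unadjusted p = 0.00614), DESeq2 (unadjusted p = 0.00738) and limma with the replicate block did. There Cxcl9 passed the filter of 6 counts through its midbrain libraries alone, so these calls are no separate support for a regional difference. Placing the unassigned libraries by title also called Cxcl9 there, while placing them by file name gave 0.36. Cxcl11, the remaining ligand of Cxcr3, had at most 9 counts in a library and was not tested.

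**Figure D3:**
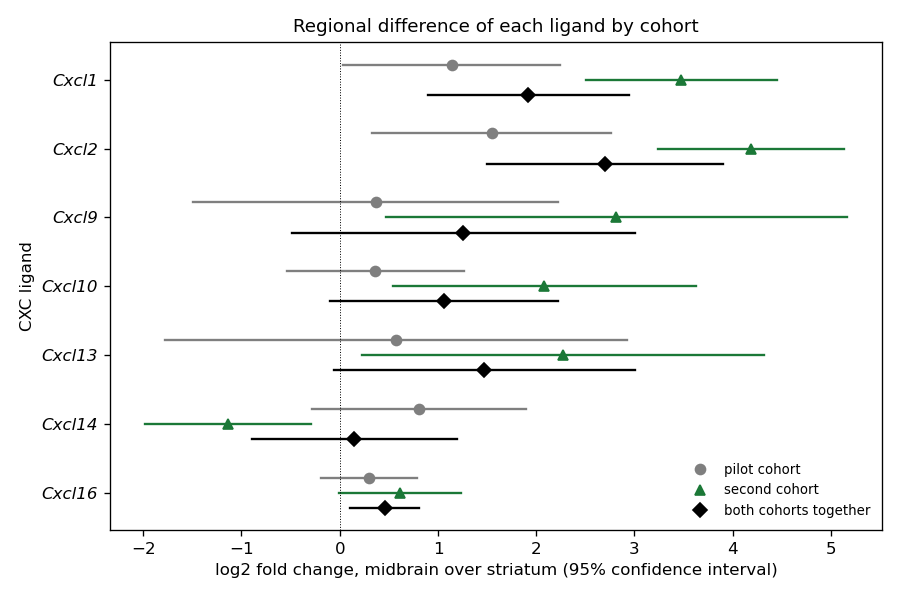
Log2 fold change of midbrain over striatum with its 95% confidence interval from limma for each ligand, in the pilot cohort (circles), the second cohort (triangles) and both together (diamonds). Cxcl1 and Cxcl2 lie furthest to the right in the second cohort, and Cxcl14 lies left of 0 there.

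A comparison of 1 member from each class used the ratio of Cxcl2 to Cxcl10 reads within a library, which needs no scaling between libraries. The midbrain libraries had 7.37 and 10.2 Cxcl2 reads per Cxcl10 read in the pilot, and 8.97 and 17.8 in the second cohort. The striatum libraries had 3.26 and 4.87 in the pilot, and 4.01 and 1.35 in the second cohort. Every midbrain ratio was above every striatum ratio, across cohorts as well. The shallow library's 1.35 has a counting interval (exact, 95%) from 0.832 to 2.23, still below the other striatum ratios. The mean log2 difference, midbrain minus striatum, was 1.78 (exact permutation test within cohorts, two-sided, p = 0.0556, the smallest that 36 labelings allow). Leaving out each library in turn gave 1.39 to 2.17. This ratio was chosen after the values had been seen, and it stands for these 2 genes, not for their classes. With Cxcl9 in place of Cxcl10 the regions overlapped in the pilot. Cxcl2 reads per Cxcl9 read were fewer in midbrain replicate 1 (counts of 2918 and 51) than in either striatum library (502 and 7, 3345 and 53). They were more in midbrain replicate 2 (3757 and 12).

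**Figure D4:**
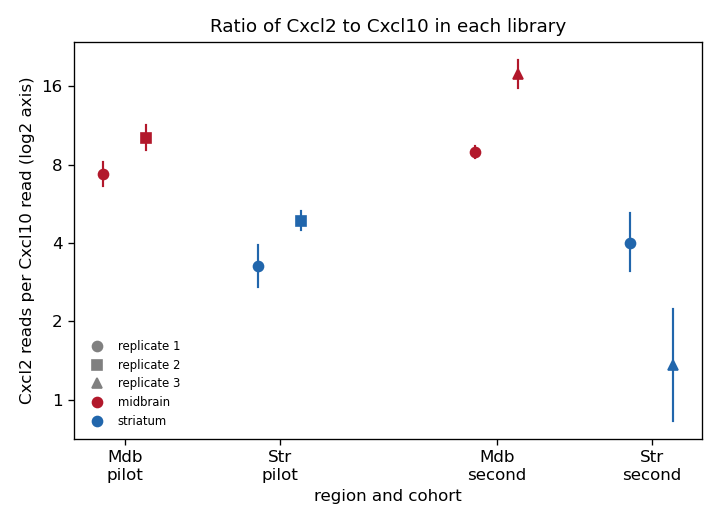
Cxcl2 reads per Cxcl10 read in each assigned library on a log2 axis, with 95% intervals for counting error only. The lowest midbrain ratio is 7.37 and the highest striatum ratio 4.87.

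Of the remaining members, Cxcl16 had the smallest standard errors in the 3 regional fits. This ligand for Cxcr6 was at 87.5 and 69.3 CPM in the pilot midbrain and 55.9 and 71.5 in the pilot striatum. Its values in the second cohort were 130 and 114 CPM in the midbrain and 79.9 and 75.4 in the striatum. The regions overlapped in the pilot and were apart in the second cohort. The joint log2 fold change was 0.46 (SE 0.16; limma, adjusted p = 0.210), a 1.37-fold difference, which was not called. Its 95% interval of 0.11 to 0.80 lies below that of Cxcl2, 1.50 to 3.90, though the difference between these genes was not tested as such. By reads per Cxcl16 read, Cxcl2 was higher in the midbrain by 2.46 on the log2 scale (exact permutation test within cohorts, two-sided, p = 0.111).

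Cxcl13, the B cell attractant, was at the edge of detection. It had 9 and 3 counts in the pilot midbrain, 1 and 10 in the pilot striatum, 25 and 8 in the midbrain of the second cohort, and 1 and 0 in the striatum there. The regions overlapped in the pilot. The 1.88 CPM of midbrain replicate 3 of the second cohort lay under the floor of the shallow striatum library, so a separation of the regions is not shown there either. Its joint log2 fold change of 1.47 (SE 0.70; limma, adjusted p = 0.365) was not called.

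Cxcl14 was the only member with a higher striatum mean in a cohort. This chemokine is expressed constitutively in many tissues. It was at 30.9 and 40.1 CPM in the pilot midbrain, and at 43.2 and 11.2 in the pilot striatum. In the second cohort it was at 20.1 and 20.4 CPM in the midbrain, below the 52.7 and 26.3 of the striatum. The log2 fold change was 0.81 (SE 0.48) in the pilot and -1.14 (SE 0.38; limma, adjusted p = 0.313) in the second cohort, and neither was called. The value of the second cohort was -0.43 without striatum replicate 1 and -1.40 without striatum replicate 3. With the unassigned libraries placed by file name it was -0.10. Placement by title (-1.30), scaling by library size (-1.20) and the replicate block (-1.11) called it. Its joint value of 0.15 (SE 0.48) turned negative under 5 of the other fits and, at -0.21 and -0.64, without midbrain or striatum replicate 2 of the pilot. The sum of 7 astrocyte markers was lowest in striatum replicate 2 of the pilot (206 CPM) and highest in striatum replicate 1 of the second cohort (1543 CPM). These are the libraries in which Cxcl14 was lowest and highest. The other 6 libraries had astrocyte sums from 429 to 687 CPM. Aldoc (76.0 and 831 CPM) and Slc1a2 (50.1 and 396 CPM) made up most of the sum in the lowest and highest library. These genes and Aqp4 were lowest and highest in the same libraries as Cxcl14. Slc1a3 was lowest elsewhere, and Gfap, Gja1 and Aldh1l1 were highest elsewhere. The part of astrocytes in the Cxcl14 values was not tested.

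Counted over the members, 0 of 7 were called in the pilot, 2 of 7 in the second cohort (Cxcl1 and Cxcl2) and 1 of 7 over both (Cxcl2), all higher in the midbrain. Calls were made at an unadjusted p under 0.01 within a cohort and an adjusted p under 0.05 over both, all by limma. Of all genes tested, 2.09% were called higher in the midbrain in the pilot, 2.88% in the second cohort and 0.975% over both. In the pilot 2 of 7 members had an unadjusted p under 0.05 by limma, as had 1626 of 14972 genes in either direction. In the second cohort 6 of 7 members had one (1431 of 13486 genes), and over both cohorts 3 of 7 (2046 of 14053 genes). In the pilot edgeR's quasi-likelihood test and DESeq2 also called 0 members. The regions did not overlap, with the midbrain higher, for 2 of 7 members in the pilot (20.2% of all genes) and, by the listed values, 6 of 7 in the second cohort (24.5%). Those 6 include Cxcl9 and Cxcl13, which could not be measured in the shallow striatum library. Cxcl14 was the remaining member there, with the striatum higher, as were 17.3% of all genes. They did so in both cohorts for Cxcl1 and Cxcl2 (8.36% of all genes). The exact permutation test gave p = 0.0556 for each of these genes, the smallest it can give, and between 0.111 and 0.833 for the other 5 members. In bulk RNA, more cells that express a ligand and more of its RNA per cell cannot be told apart.

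The estimated regional difference was larger in the second cohort for 6 of 7 members. The interaction of region and cohort was 2.60 (SE 0.87) on the log2 scale for Cxcl2, 2.30 (SE 0.86) for Cxcl1 and -2.01 (SE 0.79) for Cxcl14. These 3 members had an unadjusted p under 0.05, from 0.0123 to 0.0273 by limma, but the adjusted p was 0.86 for each. Leaving out each library in turn gave 1.56 to 3.60 for Cxcl2, 1.18 to 3.14 for Cxcl1 and -2.87 to -0.90 for Cxcl14. With the unassigned libraries placed by title the interaction was 0.20 for Cxcl2, 0.07 for Cxcl1 and -0.14 for Cxcl16, and 5 of 7 members were positive. Over all genes 0 of 14053 (0%) passed by limma, against 771 at an unadjusted p under 0.05, and edgeR passed 0 and DESeq2 2 genes. Between the cohorts at large, 0 of 7 members were called, against 10.5% of all genes in either direction. An unadjusted p under 0.05 by limma was found for 1 of 7 members and for 4089 of 14053 genes, and edgeR and DESeq2 also called 0 members. Quality weights called 2 members (Cxcl1 and Cxcl16), and leaving out striatum replicate 2 of the pilot called 3 (these and Cxcl2). Scaling by library size alone moved the median of all genes in this comparison from -0.02 to -0.13. Cxcl16 came closest, with a log2 difference of 0.48 (SE 0.16; limma, adjusted p = 0.0711), higher in the second cohort.

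Among the relatives, Cxcl3 lies in the same cluster as Cxcl1 and also signals through Cxcr2. It had 6 and 10 counts in the pilot midbrain against 0 and 1 in the striatum, and 99 and 4 in the midbrain of the second cohort against 0 and 0. Most of its reads came from midbrain replicate 1 of the second cohort. It was tested and called in the pilot only (limma, unadjusted p = 0.00919). There Cxcl3 passed the filter of 6 counts through its midbrain libraries alone. Both pilot striatum counts lay under the floor of 3, so this call is no separate support for a regional difference. Cxcl5, Cxcl15 and Ppbp, the other ligands of this class, had at most 7 counts in any assigned library. Pf4, a platelet and border macrophage chemokine of the same cluster, was at 706 and 591 CPM in the pilot midbrain and 214 and 363 in the striatum. In the second cohort Pf4 was at 1183 and 1231 CPM against 132 and 128. Its regions were apart in both cohorts, and it was called in all 3 fits, with a joint log2 fold change of 2.11 (SE 0.33; limma, adjusted p = 0.0181). Cxcl12, the stromal ligand of Cxcr4, was not called between regions (joint log2 fold change 0.37, SE 0.28; limma, adjusted p = 0.587). It was lower in the second cohort, by a log2 fold change of -1.21 (SE 0.33; limma, adjusted p = 0.0388). Cxcl17 had at most 2 counts.

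Of the receptors, Cxcr2, which neutrophils carry, was at 25.1 and 18.0 CPM in the pilot midbrain against 7.39 and 10.0 in the striatum. In the second cohort it was at 57.2 and 52.9 CPM against 17.4 and 7.01. Its regions did not overlap in either cohort, and it was called in every fit between regions, with a joint log2 fold change of 1.56 (SE 0.27; limma, adjusted p = 0.0261). Cxcr4 was called in the pilot (log2 fold change 1.96, SE 0.47; limma, unadjusted p = 0.00232) but not over both cohorts (2.04, SE 0.62; limma, adjusted p = 0.151). Cxcr3, the receptor of the interferon-induced ligands, had a joint log2 fold change of 1.36 (SE 0.46; limma, adjusted p = 0.201) on at most 31 counts. Cxcr1 was tested in the second cohort alone (2.71, SE 0.94; limma, adjusted p = 0.332), and Cxcr5 and Ackr1 in the pilot alone, with none called. Cxcr1 had 14 and 9 counts in that midbrain and 0 and 0 in the striatum. It passed the filter through the midbrain alone, and its fold change is no measured bound. Ackr3 was not called in any fit between regions, and Cxcr6, the Cxcl16 receptor, had at most 1 count.

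Genes of the pathways that induce these ligands were followed in lists. Of 16 NF-kB response genes, 14 had a higher joint value in the midbrain but only Il1b, which encodes interleukin-1 beta, was called (log2 fold change 2.33, SE 0.30; limma, adjusted p = 0.0137). The median of that list was 0.60, against 0.04 over all genes tested. Immediate early genes, which cells also switch on during tissue dissociation, had 14 of 15 higher and 5 called, among them Fosb (1.73, SE 0.35) and Klf4 (1.69, SE 0.33). Of 19 type I interferon response genes tested, 18 were higher and 2 called, Ifi27l2a (1.52, SE 0.27) and Irf7 (1.38, SE 0.27), with a median of 0.58. Of 11 interferon-gamma response genes, 7 were higher and 1 was called, Ciita (1.77, SE 0.28), the activator of MHC class II genes, with a median of 0.13. Striatum replicate 2 of the pilot, where Cxcl1, Cxcl2 and Cxcl10 were near midbrain levels, had an immediate early sum of 21658 CPM, within the 19482 to 22184 of the pilot midbrain. The other pilot striatum library had 13979. The part of dissociation in the ligand levels was not tested.

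Markers of neutrophils, monocytes, border macrophages, and T and NK cells were also mostly higher in the midbrain. The sum over 12 neutrophil markers was 1528 and 1193 CPM in the pilot midbrain and 897 and 947 in the striatum, then 6875 and 4408 in the midbrain of the second cohort against 967 and 1075. In the joint fit 11 of these 12 were higher in the midbrain and 6 were called, among them Retnlg (log2 fold change 3.24, SE 0.49) and Il1r2 (3.23, SE 0.55). The 9 monocyte markers summed to 225 to 271 CPM in the pilot midbrain, 101 in each pilot striatum library, 588 to 2785 in the midbrain of the second cohort and 126 to 200 in its striatum; 3 of 9 were called, Ms4a4c (2.60) and Ly6c2 (2.24) among them. Border macrophage markers were higher for 8 of 8 tested and called for 6, Lyve1 (2.09) and Mgl2 (1.87) among them, with sums of 893 to 1533 CPM in the midbrain and 209 to 514 in the striatum. T and NK cell markers summed to 89.1 to 318 CPM in the midbrain and 10.5 to 57.1 in the striatum, and Nkg7 (2.01) was called. Folr2 and Cd3g were at 0 in every striatum library, but had at most 1 and 4 counts in a midbrain library; every neutrophil and monocyte marker was detected in at least 1 library of each region. Midbrain replicate 1 of the second cohort, with the highest Cxcl2, Cxcl3, Cxcl9, Cxcl10 and Cxcl13, also had the highest neutrophil, monocyte and T and NK cell sums. S100a9 (3936 CPM) and S100a8 (1127 CPM) made up most of that neutrophil sum, whereas Ngp (124 against 798 CPM), Camp, Ltf, Lcn2 and Ly6g were higher in midbrain replicate 3. In striatum replicate 2 of the pilot, the Cxcl2 level was 4.19 times that of replicate 1. The neutrophil sums of replicates 2 and 1 were 947 and 897 CPM, of which Csf3r alone held 615 and 452. Mmp8 and Mmp9 were also higher in replicate 2. The other neutrophil markers were lower there, some only slightly, with Retnlg at 2.15 against 17.3 CPM and S100a8 at 7.15 against 13.3. The monocyte sums of these libraries were 101 CPM each. Their border macrophage sums were 514 and 374 CPM and their T and NK cell sums 47.9 and 26.0. The part of these cells in the ligand differences was not tested.

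**Figure D5:**
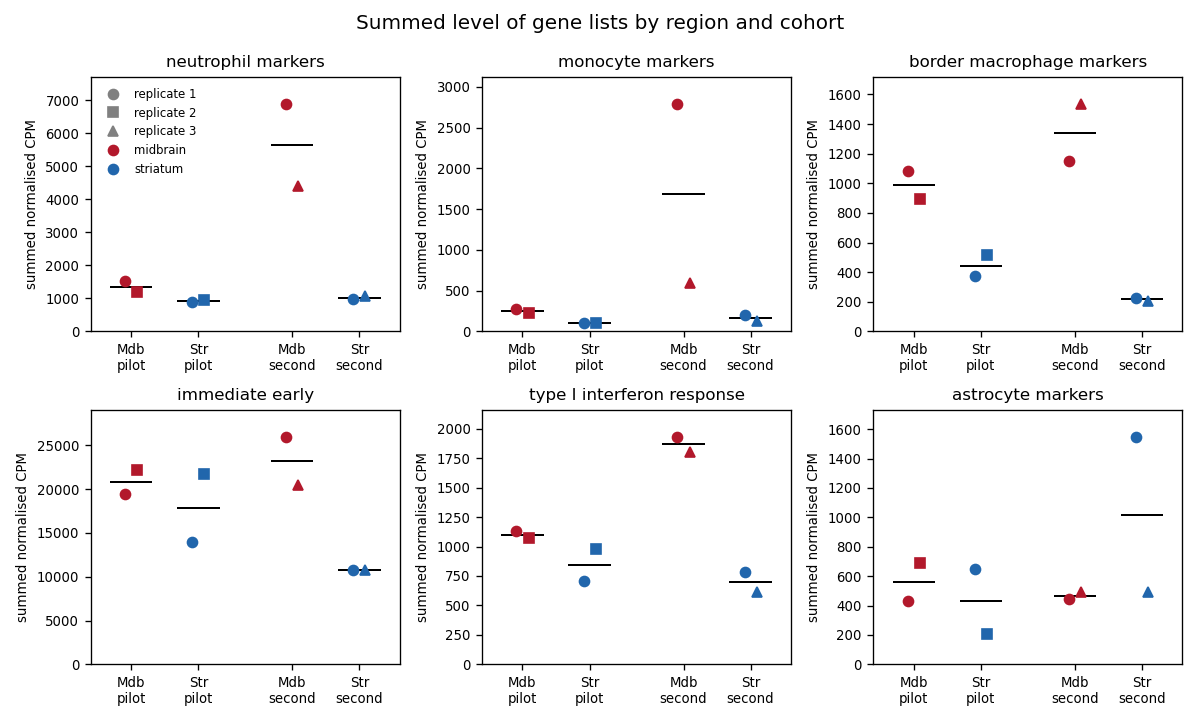
Summed TMM-scaled CPM (linear axes from 0) of 6 fixed gene lists in the 8 assigned libraries, by region (Mdb, midbrain; Str, striatum) and cohort; a line marks the mean of 2 libraries. Neutrophil, monocyte and border macrophage sums are higher in the midbrain of each cohort, immediate early sums overlap in the pilot, and astrocyte sums peak in a striatum library.

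The genes whose pattern over the 8 libraries was most like that of each member were ranked by Pearson's r of log2 CPM after removal of the cohort means, as a description over libraries that share depth and region. For Cxcl2 they were Ets2 (r = 0.994), Klf2 (0.990) and Ifi27l2a (0.990). For Cxcl1 they were Hspe1 (0.990), Ccl7 (0.989) and Rab11b (0.989), of which Ccl7 is a monocyte-attracting chemokine. For Cxcl10 they were Rnf213, Mfsd5 and Egr1, with r from 0.989 to 0.991, where Egr1 is an immediate early gene. Cxcl14 was closest to Mfge8, an astrocyte-expressed milk fat globule protein, with r = 0.990, then to Arl6 and Ppp1r16a. Cxcl16 was closest to Stxbp2, Mvp and Sri, Cxcl9 to Gsr, Napg and Eif3c, and Cxcl13 to Sem1, Rpl37 and Il2rg, the last on few counts.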

How the data were processed

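The authors aligned reads to GRCm38 with STAR 2.5.3a, used featureCounts 1.6.0 with Gencode M17 for gene counts (strand ignored, ambiguous reads dropped), and deposited these raw counts. No use of molecular identifiers is stated, so counts are reads, and intervals and floors (3 counts) cover counting error only. Counts of 10 libraries were read, 8 of them assigned from labels that agree on region and cohort. TMM factors (edgeR 4.0.16) gave the CPM. Within each cohort, and over both with cohort as covariate, voom, lmFit and eBayes (limma 3.58.1, R 4.3.3) were fitted to genes with at least 6 counts in at least 50% of the libraries, following the study's methods; Benjamini-Hochberg adjustment ran over all genes tested. Single values had an exact permutation test within cohorts. Members and gene lists were chosen with earlier results of these data known. Named genes are the members, other CXC ligands and receptors, up to 2 called genes of each direction per other list, and the 3 genes most like each member (log2 CPM with prior count 2, mean of at least 3). Alternatives were DESeq2 1.42.0, the quasi-likelihood test of edgeR, library size scaling, other filters, replicate block, quality weights, thinning, leaving out libraries, and placing the 2 unassigned libraries by title or file name. The fits were tested on simulated data. Promoter windows are RefSeq's (GRCm38.p6).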

Additional observations from a re-analysis of the deposited data

Results flagged for a closer look

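The 2 libraries left out of the comparisons, in which the region of the title differs from that of the file name, held reads of the ligands above the floor of 3 counts. The library titled midbrain with a striatum file name had Cxcl1 at 8.95 CPM, Cxcl2 at 157 CPM, Cxcl10 at 79.9 CPM and Cxcl9 at 8.31 CPM, with Cxcl14 at 13.4 CPM and Cxcl16 at 63.9 CPM. The library titled striatum with a midbrain file name had Cxcl1 at 66.6 CPM, Cxcl2 at 917 CPM, Cxcl10 at 38.9 CPM and Cxcl13 at 1.91 CPM, with Cxcl14 at 46.0 CPM and Cxcl16 at 110.0 CPM. Their Cxcl2 to Cxcl10 ratios were 1.97 and 23.5. Their border macrophage sums were 201 and 1169 CPM, against 209 to 224 CPM in the striatum and 1150 to 1533 CPM in the midbrain of the second cohort. The values were not used to place either library. Each group of the comparisons holds 2 libraries, too few to test for a library that stands apart.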

How the results depend on the processing

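Numbers of genes called over all genes, and of members among them, moved with the fit. In the pilot (395 genes, 0 members) the fit with no filter called 822 genes and 2 members, and quality weights called 1 member. In the second cohort (468 genes, 2 members) requiring at least 10 counts in every library called 204 genes and 1 member, thinning 307 genes, and the quasi-likelihood test 4 members. Placing the 2 unassigned libraries by title called 132 genes there, and by file name 4 members. Cxcl9 was among the 4 of the quasi-likelihood test and Cxcl13 among the 4 by file name. In these fits each passed the filter through its midbrain libraries alone. Over both cohorts (149 genes, 1 member) the quasi-likelihood test called 237 genes and 0 members, DESeq2 554 and 2, no filter 277 and 2, at least 10 counts 57 and 0, and quality weights 412 and 2, while thinning called 2 members. Placement by title called 0 genes and 0 members over both (Cxcl2 at 1.70, limma, adjusted p = 0.772), and placement by file name 440 genes and 2 members (Cxcl2 at 2.68, limma, adjusted p = 0.00755). The interaction had 2 genes by DESeq2, and the cohort comparison (1480 genes) had 2332 with quality weights, 574 after thinning and 2375 with placement by file name.

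Without each library in turn, the pilot gave 108 to 2445 genes and 0 to 3 members, the second cohort 393 to 1240 genes and 2 to 4 members, both cohorts 0 to 238 genes and 0 to 2 members, the interaction 0 to 7 genes and the cohort comparison 134 to 2021 genes. A lone library of a group is then assumed to vary like the others. The joint Cxcl14 value reversed to -0.26 by the quasi-likelihood test, DESeq2 and thinning, -0.16 with quality weights and -0.24 with placement by title, and ranged from -0.64 to 0.65 without each library. In the pilot, values without each library ranged from -0.60 to 1.66 for Cxcl9 (below 0 without midbrain replicate 1, and at -0.54 without striatum replicate 1), -0.32 to 1.19 for Cxcl10, -0.33 to 1.26 for Cxcl13 (2 fits only, as it failed the filter without midbrain replicate 1 or striatum replicate 2) and -0.27 to 1.64 for Cxcl14. The joint values of Cxcl1, Cxcl2, Cxcl9, Cxcl10, Cxcl13 and Cxcl16 stayed above 0 in every alternative run. A prior count of 0.5 kept 0 of the 3 genes most like Cxcl13 and at least 2 of 3 for the other members.

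The study took both regions from each mouse, but no label ties a replicate number to a mouse, and the title numbers differ from the animal numbers of the files in the second cohort. Replicate numbers were therefore not taken as pairs in the main fits. Deviations of same-numbered libraries correlated at -0.034 in the pilot and 0.0787 in the second cohort. With 2 pairs per cohort these values cannot settle which libraries share a mouse. With the replicate block, 1 member was called in the pilot (Cxcl2 at 1.54, limma, unadjusted p = 0.000718), 988 genes and 5 members in the second cohort (Cxcl1, Cxcl2, Cxcl9, Cxcl10 and Cxcl14) and 308 genes over both. With placement by file name and the animal number as a replicate block, 342 genes and 2 members were called over both. The cause of these shifts was not tested. Depth limited Cxcl9 and Cxcl13 in particular. In the assigned libraries of the second cohort both passed the filter through the midbrain alone.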
